A study of Homo sapiens with 6 samples.

Results

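The early response to phorbol 12-myristate 13-acetate (PMA) was read as the difference in chromatin accessibility between K562 cells after 6 h of PMA and K562 cells at 0 h, at every site of the authors' table. The table lists 181135 sites, and 177759 of them had enough counts to be tested. K562 is an established human erythroleukaemic line, of WT genotype per the labels, and it was the only line used. The treated cells received PMA at 25 nM for 6 h, and the 0 h cells had no time in PMA. Whether the 0 h cells received vehicle is not given in the labels. Each group had 2 ATAC-seq libraries, so 4 of the 6 libraries of the series carry the comparison. The 2 libraries of the 72 h group entered the count filter, the scaling and the estimate of the spread. With the 0 h and 6 h libraries only, 154553 sites passed the filter. The labels do not say whether replicates came from separate cultures, so p-values measure the spread between these libraries, which may be technical.

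ATAC-seq counts the cuts that a transposase makes in DNA, and open regulatory DNA is cut more often than DNA packed in nucleosomes. PMA stands in for diacylglycerol and switches on protein kinase C (PKC), which feeds the RAS and ERK kinase cascade. ERK in turn drives immediate early genes such as the FOS and EGR families, and FOS, JUN, ATF and MAF proteins pair into AP-1 dimers that bind DNA at a short palindrome. K562 cells carry open chromatin at globin and other red cell genes under GATA1, TAL1 and KLF1, and PMA is widely used to push them towards megakaryocytes, the cells that shed platelets.

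The promoters whose sites changed most in either direction are shown by their letters, since they are the gene starts at which the early response can be read in sequence. Promoter windows, each from 250 bases before to 50 bases after a gene start, were taken from RefSeq on GRCh38.p14, and the deposited sites are on hg38. Capitals mark the motifs found by a search of both strands: TGANTCA (the AP-1 palindrome), GATAA (the core bound by GATA factors, printed as TTATC on the other strand), CGGAAG (ETS factors) and GGGCGG (the GC box). In the DCLK1 window a CGGAAG on the printed strand overlaps the marked CTTCCG and is not marked in full. The first 4 windows lay over sites that rose at 6 h and the last 3 over sites that fell.
INHBA (chr7:41703041-41703340, minus strand): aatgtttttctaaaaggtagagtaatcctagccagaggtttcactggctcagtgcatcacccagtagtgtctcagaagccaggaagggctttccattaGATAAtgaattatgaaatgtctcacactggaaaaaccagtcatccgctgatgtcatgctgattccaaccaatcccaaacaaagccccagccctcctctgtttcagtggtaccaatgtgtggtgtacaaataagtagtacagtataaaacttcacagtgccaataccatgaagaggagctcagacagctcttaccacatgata
GZMB (chr14:24634141-24634440, minus strand): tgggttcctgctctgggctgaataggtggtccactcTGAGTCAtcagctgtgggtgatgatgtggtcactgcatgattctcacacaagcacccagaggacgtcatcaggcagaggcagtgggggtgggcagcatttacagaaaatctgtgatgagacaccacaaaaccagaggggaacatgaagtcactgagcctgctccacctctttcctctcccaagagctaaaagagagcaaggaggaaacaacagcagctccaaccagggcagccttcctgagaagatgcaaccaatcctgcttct
DCLK1 (chr13:35855618-35855917, minus strand): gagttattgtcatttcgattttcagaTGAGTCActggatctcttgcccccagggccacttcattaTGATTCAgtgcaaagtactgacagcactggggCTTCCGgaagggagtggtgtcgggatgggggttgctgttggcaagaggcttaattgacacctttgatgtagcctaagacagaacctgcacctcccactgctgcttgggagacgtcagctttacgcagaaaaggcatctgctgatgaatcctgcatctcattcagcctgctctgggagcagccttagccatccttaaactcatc
EMP1 (chr12:13196476-13196775, plus strand): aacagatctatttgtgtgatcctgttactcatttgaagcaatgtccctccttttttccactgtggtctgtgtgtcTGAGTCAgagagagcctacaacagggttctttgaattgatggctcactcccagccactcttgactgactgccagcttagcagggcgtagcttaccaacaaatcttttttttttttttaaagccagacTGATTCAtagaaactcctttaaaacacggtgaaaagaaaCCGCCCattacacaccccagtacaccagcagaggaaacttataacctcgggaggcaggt
C11orf21 (chr11:2303091-2303390, minus strand): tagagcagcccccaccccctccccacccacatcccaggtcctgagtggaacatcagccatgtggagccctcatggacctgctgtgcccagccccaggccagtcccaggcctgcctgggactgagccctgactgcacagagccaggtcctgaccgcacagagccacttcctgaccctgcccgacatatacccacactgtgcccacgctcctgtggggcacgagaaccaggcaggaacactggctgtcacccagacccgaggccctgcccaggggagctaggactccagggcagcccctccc
PGC (chr6:41747348-41747647, minus strand): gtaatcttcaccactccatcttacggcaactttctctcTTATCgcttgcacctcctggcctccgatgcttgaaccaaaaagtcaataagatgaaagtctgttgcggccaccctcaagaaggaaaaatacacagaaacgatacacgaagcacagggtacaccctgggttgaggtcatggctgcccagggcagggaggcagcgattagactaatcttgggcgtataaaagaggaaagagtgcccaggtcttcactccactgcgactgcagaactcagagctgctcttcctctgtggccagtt
C17orf99 (chr17:78146135-78146434, plus strand): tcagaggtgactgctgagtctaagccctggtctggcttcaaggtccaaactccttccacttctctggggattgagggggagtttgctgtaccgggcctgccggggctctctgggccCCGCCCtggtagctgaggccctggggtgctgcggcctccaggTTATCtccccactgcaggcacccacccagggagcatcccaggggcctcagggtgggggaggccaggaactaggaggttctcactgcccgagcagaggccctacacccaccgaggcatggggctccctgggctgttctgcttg

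At the start of INHBA, which encodes the subunit of activin A, the overlapping site had 7 and 2 counts at 0 h and 78 and 127 at 6 h. This is a log2 fold change of 4.33 (SE 0.46, edgeR adjusted p 1.7e-07). Over the start of GZMB, the gene of the cytotoxic protease granzyme B, the site had 0.260 and 0.382 counts per 1000000 counts of the scaled library (CPM) at 0 h and 7.16 and 6.01 at 6 h. At the start of EMP1, an epithelial membrane protein gene with TGANTCA at 2 positions, the values were 0.650 and 1.19 CPM at 0 h against 13.1 and 17.7 at 6 h. The DCLK1 start, of a microtubule-binding kinase, also holds TGANTCA at 2 positions and went from 0.260 and 0.287 CPM to 5.71 and 4.17. All of these starts, chosen for their large rise, were almost closed in both 0 h libraries. In the other direction, the site over the start of C11orf21 had 32.6 and 36.6 CPM at 0 h and 5.71 and 5.94 at 6 h, a log2 fold change of −2.57 (SE 0.19, edgeR adjusted p 1.3e-09). The PGC start, of the stomach protease precursor progastricsin, went from 5.33 and 7.21 CPM to 0.852 and 1.23. The C17orf99 start went from 18.6 and 22.8 CPM to 3.07 and 4.68. No value at 6 h reached a 0 h value at these 3 starts, which were chosen for their large change.

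The motif counts were compared among groups of promoter windows. TGANTCA was present in 36.0% of the 397 windows over sites called higher under all scalings described below, in 2.06% of the 1215 windows over sites called lower and in 6.28% of the 6723 over sites not called. Among all 22183 windows its share was 6.15%. Of the 14229 windows over tested sites, those over sites called under the main scaling but not under all form no group here. GATAA was present in 24.2% of the windows that opened and 19.1% of those that closed, against 18.6% of all windows and 14.7% of those over sites not called. The GC box was found in 39.8% of the windows that opened and 71.4% of those that closed, against 56.3% of all windows and 67.1% of those over sites not called. CGGAAG was found in 10.3% and 30.4%, against 23.7% of all windows and 30.4% of those over sites not called. The remaining motifs were the cyclic AMP element TGACGTCA (1.26% and 1.81%, and 3.30% over sites not called), the EGR motif GCGTGGGCG (0.504% and 1.98%, and 1.32% over sites not called), which can share letters with the GC box, and the CArG box of the serum response factor (1.51% and 1.32%, and 1.06% over sites not called). These shares describe letters in the windows and not bound factors. The promoter sites also differed in strength. By calls under the main scaling, their median was 5.77 CPM where called higher, 38.6 where called lower and 19.0 where not called.

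Counts in sites summed to 17669446 and 24470037 in the 0 h libraries and to 12258890 and 33634403 in the 6 h libraries. The shallow 6 h replicate 1 thus had the fewest counts of the 4, and its median tested site held 22 counts against 56 in 6 h replicate 2. Under the TMM scaling used for all values unless another is named, tested sites as a whole had a median log2 fold change of 0.05. It was −0.11 with loess offsets that follow site strength, −0.10 with RLE size factors, 0.18 with total counts and 0.35 with TMM factors taken from sites with a peak in every library. A site, gene or window called in the same direction under all 5 scalings is said below to be robust to scaling.

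The change was also read in each 6 h library on its own, since their depths differ. The log2 ratio of 6 h to 0 h CPM, computed with a pseudocount of 0.5 CPM, was taken separately in the replicate 1 libraries and the replicate 2 libraries. Across the 177759 sites, which are not independent replicates, the ratios had a Pearson r of 0.81. Among sites called higher the median ratio was 1.26 in replicate 1 and 1.28 in replicate 2, and among sites called lower −0.93 and −0.90. The sites were called from these same libraries, so the likeness of these medians is partly fixed by the choice. Both ratios had the sign of the fitted change at 78.2% of all tested sites and at 63.7% of the sites not called. The median absolute difference between replicates was 0.28 at 6 h and 0.28 at 0 h on this scale.

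**Figure D1:**
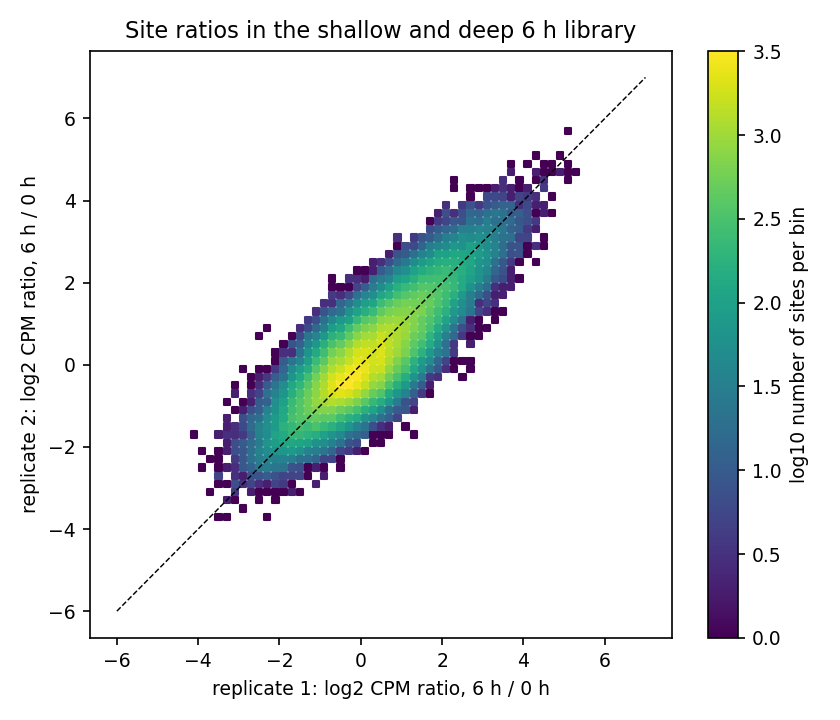
Log2 ratio of 6 h to 0 h CPM at each tested site in the replicate 1 libraries (x axis, shallow 6 h library) and in the replicate 2 libraries (y axis, deep 6 h library). Squares are bins coloured by the log10 number of sites, the dashed line marks equal ratios, and the cloud follows that line with a Pearson r of 0.81.

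By 6 h accessibility had moved in both directions at a large part of the sites. At a Benjamini-Hochberg adjusted p under 0.05 in edgeR's quasi-likelihood test, 71365 of 177759 sites were called, or 40.1%. Of all tested sites 23.4% were called higher and 16.8% lower, with median log2 fold changes of 1.80 and −1.16. The direction of the balance depended on the scaling: gains made up 58.2% of the calls with TMM, 46.6% with loess offsets, 48.9% with RLE, 67.3% with total counts and 77.3% with factors from shared sites. Sites robust to scaling were 32519 sites that rose (18.3%) and 15118 that fell (8.5%). At an adjusted p under 0.01 and a log2 fold change beyond 1 in size 23.5% of the sites were called, 16.4% higher and 7.11% lower. Non-overlap alone was common: in 36.0% of sites both 6 h values lay above both 0 h values, and in 32.0% below. Of the sites called higher 81.8% overlapped no deposited peak of either 0 h library, beside 64.9% of the sites not called, and 30.8% overlapped a peak in both 6 h libraries and in neither 0 h library. Of the sites called lower 42.9% still overlapped a peak in all 4 libraries, beside 18.0% of the sites not called, and 17.4% had a peak in the 0 h libraries only. Without the shallow 6 h replicate 1, 82.9% of the calls held in the same direction, and without the deep replicate 2, 67.2% did.

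Gains lay away from gene ends. The median distance from a site's midpoint to the nearest end of a protein-coding gene was 25521 bases for sites called higher, 12944.5 for sites called lower and 22882 for sites not called. Within 1000 bases of a gene end 8.29% of the 16905 sites were called higher, against 24.2% of the 41578 sites at 1000 to 10000 bases. From there to 500000 bases the share called higher stayed between 24.2% and 25.8%, and among the 2727 sites beyond that distance it was 14.9%. Among sites robust to scaling the order held, with 6.19% of sites within 1000 bases and 18.6% to 20.7% in the classes between 1000 and 500000 bases.

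Losses at gene ends depended on the scaling. Under TMM 37.9% of the sites within 1000 bases of a gene end were called lower, the highest share of any distance class, and their median log2 fold change was −0.38. Losses robust to scaling made up 8.91% of these sites, beside 7.40% to 9.18% in the other classes and 8.5% of all sites. Gene-end sites were also stronger, with a median of 14.7 CPM against 1.79 for all tested sites. Within the strongest 25% of sites, 50.3% of the 11401 at gene ends and 29.4% of the 32713 farther away were called lower under TMM, but 10.4% and 16.9% were lower under all scalings. In the same 25% of sites 3.94% of the gene-end sites and 25.3% of the sites farther away were higher under all scalings.

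**Figure D2:**
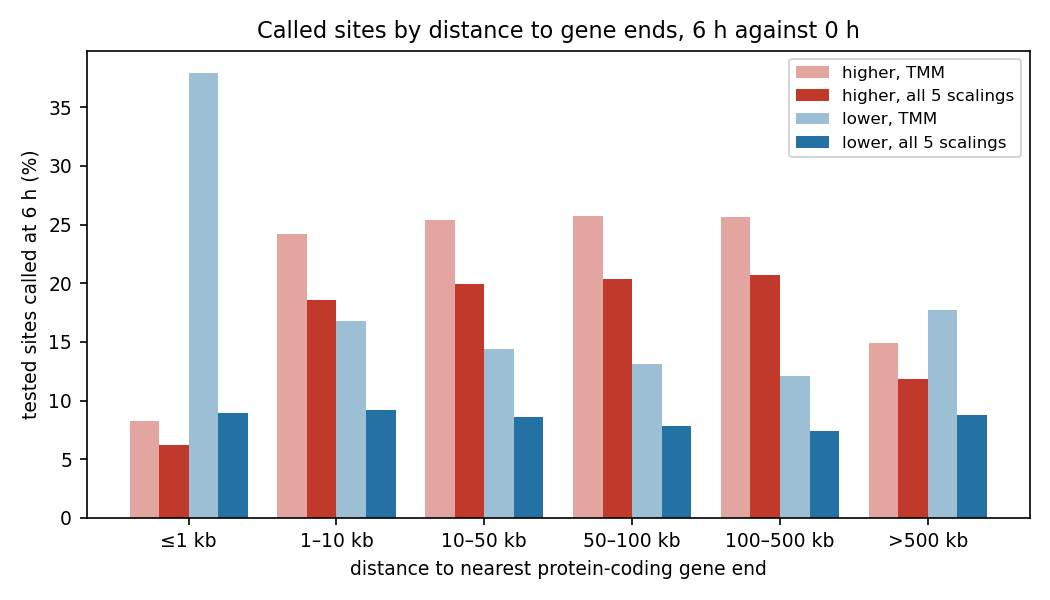
Share of tested sites called at 6 h (y axis, percent) by distance to the nearest protein-coding gene end (x axis). Pale bars are calls under TMM and dark bars calls that held under all 5 scalings; the pale blue bar at gene ends stands at 37.9% and its dark neighbour at 8.91%.

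Sites at gene starts and at gene stops were counted separately. Of 10623 sites within 1000 bases of a gene start, 4.88% were called higher and 43.8% lower, and 3.52% and 8.16% were so under all scalings. Of 2920 sites at gene stops, 19.4% were called higher and 20.4% lower, and 15.2% and 10.7% under all scalings. The median strength was 24.0 CPM at starts and 2.59 CPM at stops. For 3362 further sites the strand of the gene was not in the tables used. The difference between starts and stops was not tested.

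Each called site was compared with the next site along the chromosome. Where the next site lay within 5000 bases of a site called higher, it was also called higher in 36.5% of pairs, against 25.1% of all such pairs. For sites called lower the values were 25.0% and 15.8%. Most larger windows held calls of both directions. Of 8024 windows of 100 kb with at least 10 tested sites, 6059 (75.5%) held sites called higher and sites called lower, 1484 held only higher calls, 431 only lower calls and 50 no call. As 23.4% of all tested sites were called higher and 16.8% lower, most windows of this size would hold both by those shares alone. The count of mixed windows therefore does not describe grouping. In 307 windows (3.83%) at least 50% of the sites rose under all scalings, and in 15 (0.187%) at least 50% fell.

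The largest gains were at sites that were nearly closed at 0 h, which a ranking by fold change favours. Inside PHLDA1, an inducible gene of a pleckstrin-like protein, and 887 bases from its stop, a site (peak42778, chr12:76025538-76027130) had 12 and 10 counts at 0 h and 477 and 1536 at 6 h. That is 0.780 and 0.478 CPM against 40.6 and 48.6, a log2 fold change of 6.19 (SE 0.27, edgeR adjusted p 1.2e-12). Inside TMCO4, which encodes a transmembrane and coiled-coil protein, a site (peak2542, chr1:19750298-19751046) had 2 and 7 counts at 0 h and 232 and 756 at 6 h (log2 fold change 6.45, SE 0.32, adjusted p 1.0e-11). A site 61.5 kb from the gene of the alarmin cytokine IL33 (peak169149, chr9:6153275-6153975) had 0 and 2 counts at 0 h and 75 and 108 at 6 h, a CPM ratio of 76.6 (exact 95% interval 20.9 to 638). The site inside SUGCT with 0 counts in both 0 h libraries (peak153262) was at least 71.5-fold higher, against a floor of 3 counts over the group. The site 25.9 kb from LOC124903407 (peak54329), with 2 and 0 counts at 0 h, had a CPM ratio of 120 (33.0 to 997). Intervals and floors cover counting error only. Where 0 h counts were this low, leaving out a library moved the fitted value, which ran from 5.61 to 10.54 for LOC124903407, from 5.49 to 10.03 for IL33, from 5.96 to 7.36 for TMCO4 and from 5.84 to 6.48 for PHLDA1.

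The largest losses, ranked in the same way, took sites from a few CPM to near 0. A site 17.6 kb from ATF7IP2, which encodes a partner of the histone methyltransferase SETDB1, had 55 and 102 counts at 0 h and 2 and 7 at 6 h (peak62763, chr16:10501021-10501478). This is a log2 fold change of −4.33 (SE 0.57, edgeR adjusted p 2.6e-06). Inside the zinc finger gene ZSCAN23 a site (peak142053, chr6:28433039-28433617) had 72 and 82 counts at 0 h and 4 and 5 at 6 h (−4.30, SE 0.50, adjusted p 5.3e-07). The site over an end of ERICH5 (peak165873, chr8:98093113-98093746) had 75 and 92 counts at 0 h and 6 and 4 at 6 h (−4.22, SE 0.50, adjusted p 7.4e-07). At the site 20041 bases from MSANTD3 (peak172442) the counts were 85 and 64 at 0 h and 9 and 0 at 6 h. The site near A2ML1, a protease inhibitor gene, had 206 and 88 counts at 0 h and 10 in each 6 h library (peak39112). Without a library the fitted values ran from −4.66 to −4.09 for ATF7IP2, −4.72 to −3.69 for ZSCAN23, −5.14 to −3.22 for ERICH5 and −4.77 to −3.14 for A2ML1. For MSANTD3 they ran from −9.98 without 6 h replicate 1 to −2.51 without 6 h replicate 2, and DESeq2 did not call this site (adjusted p 0.0992).

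Counts were next summed over all sites nearest to a gene and within 50 kb of an end of it, which gave a value for each of 18188 genes. The sum of 10187 genes was called (56.0%), 17.8% higher and 38.2% lower, and 13.9% rose and 11.2% fell under all scalings. Higher sums made up 31.8% of the calls under TMM and from 21.3% (RLE) to 72.9% (factors from shared sites) under the others. With sites within 1000 bases of any gene end left out, the balance turned, and of 16518 sums 4683 were higher and 3756 lower. The gene with most gained sites was LOC124903407, a predicted protein-coding gene on chromosome 14, where 24 of 27 sites rose under all scalings. Its sum was 11.3 and 16.5 CPM at 0 h and 126 and 115 at 6 h (8.67-fold between the group means, edgeR adjusted p 3.0e-10). At CD44 (chr11:35139171-35232402), the gene of the hyaluronan receptor, 20 of 32 sites rose. The CD44 sum went from 29.4 and 33.6 CPM to 121 and 151, a log2 fold change of 2.11 (SE 0.13, adjusted p 4.2e-09). Over the CD44 start a site had 3.51 and 3.20 CPM at 0 h and 20.9 and 20.4 at 6 h, and a site inside the gene (peak31719, chr11:35214592-35215320) had 4 and 13 counts at 0 h and 294 and 773 at 6 h. At APCDD1L, a relative of the WNT inhibitor APCDD1, 18 of 22 sites rose and the sum went from 26.3 and 30.0 CPM to 171 and 185 (2.66, SE 0.11, adjusted p 1.4e-10). In each of these 3 genes, chosen for their gained sites, the 6 h libraries lay several-fold above the 0 h libraries.

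The next 7 genes completed the 10 with the most gained sites. MDGA1, which encodes a membrane-anchored immunoglobulin-like protein, had 119 and 120 CPM at 0 h and 267 and 308 at 6 h (log2 fold change 1.27, SE 0.11, edgeR adjusted p 2.0e-07). The site over its 3′ end went from 4.29 and 4.63 CPM to 49.7 and 63.4. CDCP1, the gene of a membrane substrate of SRC kinases, went from 306 and 322 CPM to 614 and 637 (0.99, SE 0.11). PPP1R14C, an inhibitor of protein phosphatase 1 that PKC activates, had 294 and 278 CPM at 0 h and 437 and 468 at 6 h (0.66, SE 0.11). The sums of SNX9, a sorting nexin gene (0.63), and CLEC16A, a gene of autophagy (0.49), were also higher under all scalings. ACVR1, a BMP receptor gene (0.41), and ZMIZ1, the gene of a transcription coregulator (0.39), had 16 gained sites each but their sums were not called under RLE (adjusted p 0.0515 and 0.108). At ZMIZ1 5 of 46 sites fell.

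Genes with the most lost sites were ranked in the same way. CBFA2T3, whose product ETO2 is a corepressor in TAL1 complexes, lost 10 of 18 sites under all scalings while 5 rose, and its sum went from 252 and 272 CPM to 150 and 169 (log2 fold change −0.72, SE 0.11, edgeR adjusted p 5.8e-05). ZFPM1, which encodes the GATA1 cofactor FOG1, lost 9 of 22 sites and went from 372 and 428 CPM to 230 and 254 (−0.72, SE 0.11, adjusted p 7.9e-05). GYPB, which encodes a red cell surface sialoglycoprotein, lost 8 of 13 sites, and its sum had 87.1 and 90.0 CPM at 0 h and 37.9 and 31.8 at 6 h (−1.36). GYPB has close copies in the genome, so reads could be split or shared among them and its value is uncertain. RBM38, an RNA-binding protein gene, lost 8 of 17 sites (−0.68).

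RNF187, a ubiquitin ligase gene, had 145 and 140 CPM at 0 h and 68.0 and 74.0 at 6 h (a ratio of 0.498 between the group means, edgeR adjusted p 9.2e-07). ATF7IP2 had 111 and 99.4 CPM at 0 h and 49.7 and 49.3 at 6 h (−1.09, SE 0.10). MAPK8, the gene of the JNK1 kinase, went from 202 and 233 CPM to 109 and 130 (−0.86, SE 0.12). VSIG4, a complement receptor gene, had 194 and 196 CPM at 0 h and 109 and 129 at 6 h (−0.71). COL15A1, a collagen gene, had 8 sites that fell and 6 that rose, and its lower sum (−0.48) was not called under factors from shared sites (adjusted p 0.139). In each of the 19 genes named by number of sites both 6 h sums lay on the same side of both 0 h sums. The genes were chosen among sums called in that direction, so this adds no support. Of all sites called higher, 99.4% likewise had no overlap between the groups.

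**Figure D3:**
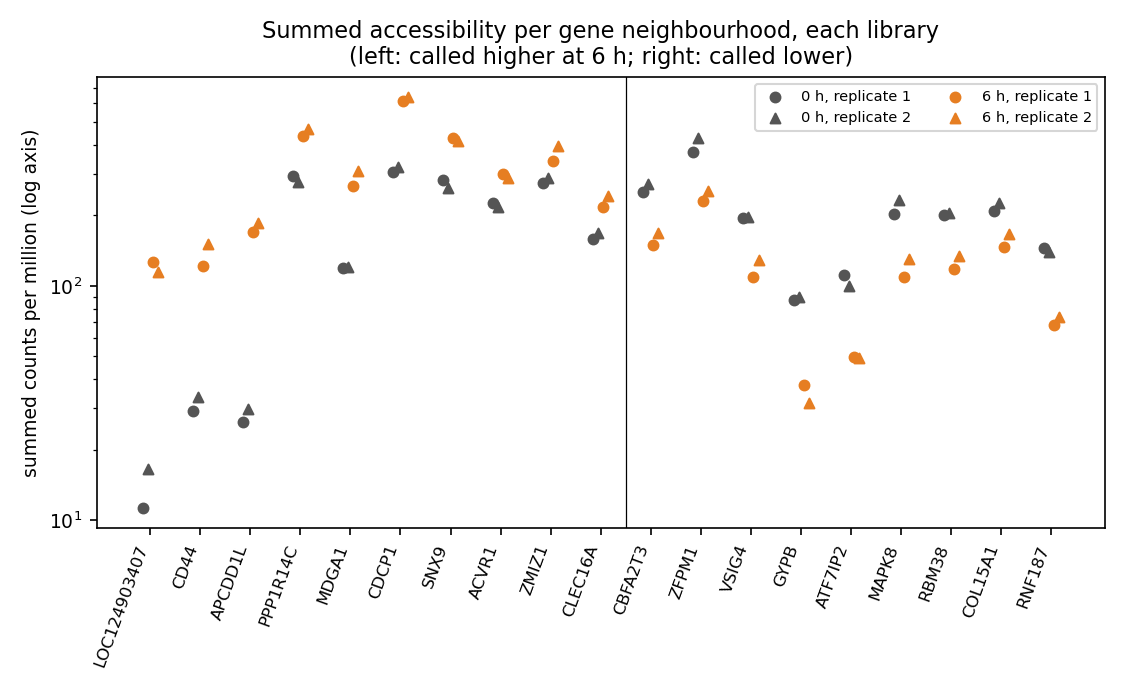
Summed CPM of all sites within 50 kb of each named gene (y axis, log scale) in each library, grey for 0 h and orange for 6 h, with circles for replicate 1 and triangles for replicate 2. The 10 genes on the left were called higher and the 9 on the right lower; CD44 rises from 29.4 and 33.6 to 121 and 151 CPM and GYPB falls from 87.1 and 90.0 to 37.9 and 31.8.

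Windows of 100 kb gave the same kind of neighbourhood without use of gene names. Of 21194 windows 52.4% were called, 24.7% higher and 27.7% lower, and 20.2% rose and 8.51% fell under all scalings. Higher windows made up 47.1% of the calls under TMM and from 34.5% to 81.6% under the other scalings. In a window next to GEM and CDH17 (chr8:94200001-94300000), a small GTPase gene and a cadherin gene, 17 of 22 sites rose and none fell, and the sum went from 20.5 and 21.0 CPM to 126 and 143 (log2 fold change 2.70, SE 0.11, edgeR adjusted p 9.3e-11). The window with APCDD1L and STX16 gained 16 of 23 sites, and a window beside KRR1 and PHLDA1 (chr12:75700001-75800000) 16 of 20, from 36.5 and 32.7 CPM to 173 and 159. A window near LOC124903407 and RTL1, a retrotransposon-derived imprinted gene, gained 16 of 18. On chromosome 6 a window whose nearest gene is LOC128966717 (chr6:4300001-4400000) gained 16 of 27 sites and went from 99.7 and 105 CPM to 340 and 381.

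The windows with the most losses included the alpha-globin genes. In the window with HBZ, HBM, HBA2, HBA1 and HBQ1 and the neighbouring MPG, NPRL3 and LUC7L (chr16:100001-200000), 9 of 21 sites fell under all scalings and none rose. Its sum was 318 and 323 CPM at 0 h and 178 and 169 at 6 h, a log2 fold change of −0.89 (SE 0.10, edgeR adjusted p 1.8e-06). NPRL3 is the gene whose introns hold the main alpha-globin enhancers. The window around ATF7IP2 (chr16:10300001-10400000) lost 9 of 19 sites (−0.91), the window with RBM38 and CTCFL 9 of 21 (−0.69) and the window with QPRT and SPN, the gene of the leukocyte sialoglycoprotein CD43, 9 of 23 (−0.67). A window next to CCDC200 and TMEM106A lost 9 of 19 sites (−0.86).

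**Figure D4:**
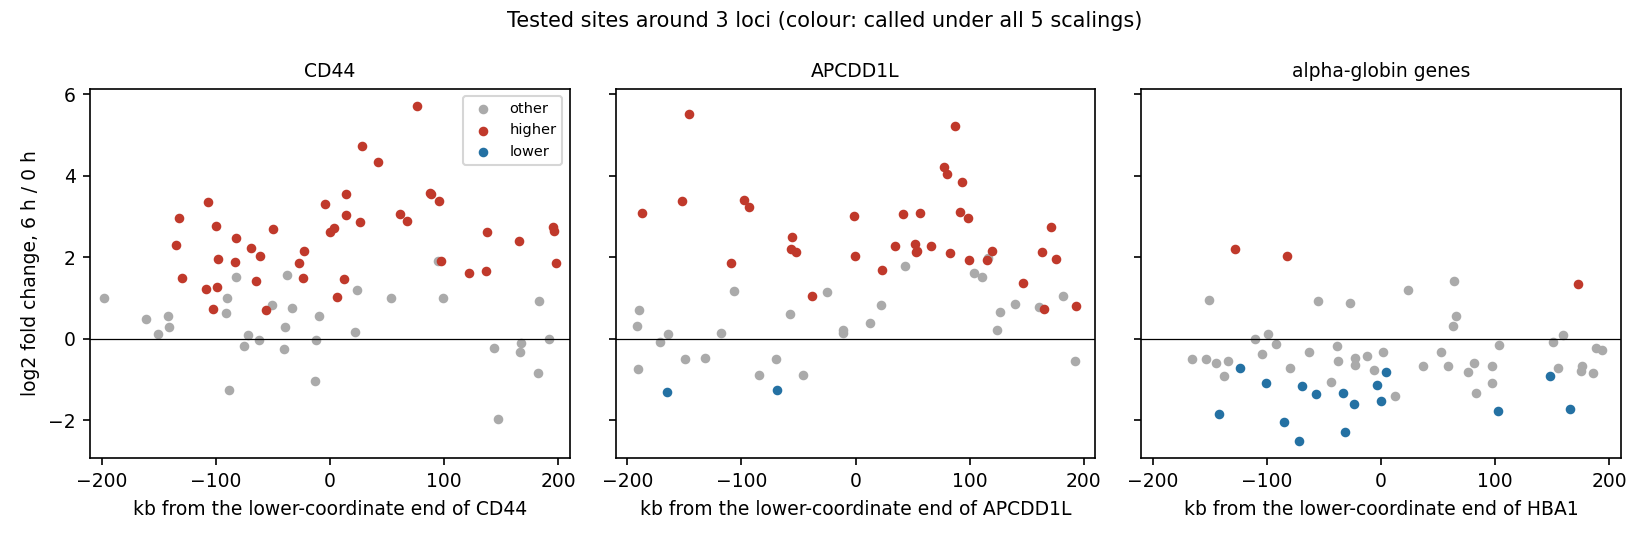
Log2 fold change of each tested site, 6 h over 0 h (y axis), against the distance in kb from the lower-coordinate end of the named gene (x axis), within 200 kb. Red and blue points were called higher and lower under all 5 scalings: 43 of 75 sites rose around CD44 and 36 of 66 around APCDD1L, where 2 fell, while 16 of 63 fell and 3 rose around the alpha-globin genes.

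The pathway that PMA enters was followed through gene lists, each described by its sites within 50 kb and by its sums per gene. Of 183 sites of PKC, PKD and RASGRP genes, 24.0% rose and 6.56% fell under all scalings, against 18.3% and 8.5% of all sites, and their median log2 fold change was 0.25 against 0.05. Within 5000 bases the median of the PKC list minus that of all sites was −0.28. At that reach it was −0.52 for housekeeping, −0.42 for ribosomal and 1.29 for secreted factor genes. Of the strongest gene-end sites of 12 PKC list genes 3 were called lower under TMM and none higher, and 1 was lower under all scalings. Of all sites within 1000 bases of a gene end 37.9% were called lower and 8.29% higher under TMM. Over all genes 13.9% of the sums rose and 11.2% fell, which is the background for the counts of sums. Among the sums of 16 genes 3 rose and 2 fell. PRKCH and PRKCE, which encode the calcium-independent PKC isoforms eta and epsilon, rose from 55.7 and 53.5 CPM to 89.4 and 82.3 (log2 fold change 0.65) and from 63.7 and 70.5 to 110 and 111 (0.72). RASGRP3, the gene of a diacylglycerol-responsive RAS activator, rose by 0.66, while its relatives RASGRP4 (−0.90) and RASGRP2 (−0.74) fell. The ERK feedback list holds phosphatases and Sprouty proteins that damp ERK. Its 191 sites had 27.2% gains, 6.28% losses and a median of 0.24, and 4 of 14 sums rose and none fell. Within 5000 bases its median minus that of all sites was −0.15, and of 14 gene-end sites 7 were called lower under TMM and 1 higher. Under all scalings 1 of these 14 was lower and none higher. Of all sites within 1000 bases of a gene end 8.91% were lower and 6.19% higher under all scalings. DUSP5, a nuclear ERK phosphatase gene, led with 75.4 and 71.7 CPM at 0 h and 220 and 216 at 6 h (1.57, SE 0.11, edgeR adjusted p 1.8e-08). A site 14.5 kb from DUSP5 (peak27619) had 9 and 6 counts at 0 h and 265 and 573 at 6 h. DUSP2 (1.03), SPRY4 (0.47) and SPRED3 (0.75) also rose, the last not without 0 h replicate 1 (0.43, adjusted p 0.0839). At DUSP6, the gene of a cytoplasmic ERK phosphatase, the strongest gene-end site fell from 19.1 and 17.9 CPM to 8.44 and 7.30 (−1.24, SE 0.21).

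Of the 147 sites of immediate early genes 31.3% rose and 3.40% fell under all scalings (median 0.38), and 6 of 16 sums rose and none fell. KLF6, a zinc finger factor gene, gained 13 of 25 sites, and its sum went from 189 and 191 CPM to 476 and 461 (log2 fold change 1.30, SE 0.11, edgeR adjusted p 1.1e-07). A site that reaches an end of KLF6 (peak20696) rose from 6.50 and 7.26 CPM to 99.6 and 95.5. IER3, an ERK-regulated survival gene, rose by 0.63, and EGR1, EGR2, EGR3 and EGR4, zinc finger factor genes induced by serum and phorbol esters, by 0.61, 0.45, 0.61 and 0.86. The EGR2 and EGR3 sums were not called without 6 h replicate 2 (adjusted p 0.066 and 0.0615), and EGR2 also not without 0 h replicate 1 (0.075). At the 3′ end of EGR2 a site had 17 and 48 counts at 0 h and 99 and 549 at 6 h (2.91, SE 0.36). BTG2, an antiproliferative gene, had a sum of 200 and 198 CPM at 0 h and 211 and 228 at 6 h, which was not called (adjusted p 0.27).

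Of the 139 sites of AP-1 and partner genes 28.8% rose and 2.88% fell (median 0.41), and among 13 sums 3 rose and 1 fell. BATF rose from 27.1 and 27.9 CPM to 51.8 and 56.8 (log2 fold change 0.98, SE 0.11, edgeR adjusted p 3.1e-06) and the small MAF gene MAFK from 42.4 and 51.1 to 69.7 and 74.9 (0.63), while MAFG fell (−0.65). ATF3 gained 13 of 21 sites, but its sum (0.35) was not called under RLE (adjusted p 0.147). FOS had 3 sites that rose and 2 that fell among 19, and its sum was not called. FOSL2 gained 6 of 20 sites, and one 28.75 kb from it (peak88193) rose from 1.49 and 1.29 CPM to 13.4 and 13.6 (3.28, SE 0.26, adjusted p 3.5e-09). At the 3′ end of FOSB a site (peak84434, chr19:45474314-45475699) had 39 and 29 counts at 0 h and 171 and 1391 at 6 h. In CPM it had 2.53 and 1.39 at 0 h and 14.6 and 44.0 at 6 h (3.97, SE 0.39, adjusted p 6.3e-08). Both 6 h libraries lay above both 0 h libraries there, but the shallow 6 h replicate 1 lay below the deep one, and without the deep one the log2 fold change was 2.87. The FOSB sum (0.53) was not called without the deep library (adjusted p 0.33). The NF-kB list stayed near the background, with 20.2% of 109 sites higher, 10.1% lower, a median of 0.17 and none of 13 sums called under all scalings. Within 5000 bases its median minus that of all sites was −0.13. At TNFAIP3, the gene of the inhibitor A20, 7 of 31 sites rose and 4 fell.

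Genes of secreted factors showed the highest share of gains of any list. Of 205 sites 38.5% rose and 5.37% fell under all scalings (median log2 fold change 0.63), and 16 of 20 sums rose and none fell. LIF, a cytokine of the IL-6 family, rose from 6.50 and 8.31 CPM to 32.3 and 37.7 (log2 fold change 2.23, SE 0.16, edgeR adjusted p 1.8e-08), and its relatives OSM (1.52) and IL11 (1.63) rose too. The site at an end of OSM went from 2.66 and 3.73 CPM to 18.7 and 19.6, and that at the start of IL11 from 11.3 and 11.9 to 32.0 and 37.4. Chemokine genes also gained: CCL4 (2.47), CCL2 (1.69), CCL3 (1.56), CXCL8 (1.26), CXCL2 (0.75) and CXCL3 (0.67). The start of CXCL8, the gene of the neutrophil attractant interleukin 8, held 4.48 and 6.21 CPM at 0 h and 11.9 and 16.5 at 6 h (1.41, SE 0.24). CXCL1 (0.47) was lost without 0 h replicate 1 or 6 h replicate 2 (adjusted p 0.0563 and 0.0608). The activin gene INHBA rose from 11.7 and 6.59 CPM to 34.8 and 27.4 (1.78), and the EGF receptor ligand genes AREG (0.69) and HBEGF (0.70) and the colony-stimulating factor genes CSF1 (0.71) and CSF2 (0.67) rose less. VEGFA had 6 sites that rose and 4 that fell among 26, and its sum of 240 and 243 CPM at 0 h and 218 and 258 at 6 h was not called. IL1B rose as a sum (0.65), yet its strongest gene-end site fell from 5.46 and 5.83 CPM to 1.45 and 2.21 (−1.55, SE 0.29).

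Of the 81 sites of protease and inhibitor genes 35.8% rose and 6.17% fell (median 0.66), and 4 of 11 sums rose. TIMP1, a metalloproteinase inhibitor gene, went from 40.4 and 48.6 CPM to 119 and 80.5 (log2 fold change 1.15, SE 0.16, edgeR adjusted p 2.0e-05), and PLAT, the gene of tissue plasminogen activator, from 67.4 and 58.3 to 114 and 123 (0.91). MMP10 rose from 1.95 and 0.478 CPM to 3.83 and 3.07 and was not called without 0 h replicate 2 (adjusted p 0.12). PLAU, the urokinase gene, was not called as a sum, with 151 and 152 CPM at 0 h and 149 and 157 at 6 h, though the site at its start rose from 21.2 and 19.5 to 36.8 and 40.4 (0.93, SE 0.16). The most changed PLAU site, 13.1 kb away (peak25227), fell from 37.8 and 32.0 CPM to 9.12 and 7.87 (−2.05, SE 0.19, edgeR adjusted p 2.6e-08).

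Of the 398 sites of adhesion and cytoskeleton genes 33.4% rose and 4.02% fell (median 0.55), and 11 of 27 sums rose under all scalings and none fell. Besides CD44, the largest were ANXA1, a phospholipid-binding annexin gene (31.3 and 36.1 CPM to 86.8 and 99.2, log2 fold change 1.47), and ITGA2, the collagen receptor subunit (14.7 and 14.3 to 42.4 and 37.0, 1.45). ITGA3 (1.05) and ITGA5 (1.00) encode other integrin alpha chains, and S100A10 (0.94) and ANXA2 (0.68) encode partners in a membrane complex. TPM4 (0.72), PXN (0.67) and VIM (0.56) encode tropomyosin 4, paxillin and vimentin. MYH9, the non-muscle myosin gene, gained 6 and lost 4 of 28 sites, and its sum was not called (−0.10).

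The platelet and megakaryocyte list split by gene. Of its 131 sites 25.2% rose and 9.16% fell (median 0.44), and of 18 sums 7 rose and 3 fell under all scalings. CD9, a tetraspanin gene, rose from 67.3 and 59.2 CPM to 90.5 and 118 (log2 fold change 0.73, SE 0.12), ITGB3, the beta chain of the fibrinogen receptor, from 101 and 91.4 to 135 and 153 (0.58), and VWF, the von Willebrand factor gene, from 23.1 and 19.7 to 35.6 and 48.7 (1.00). The granule protein genes THBS1 (1.12) and PPBP (2.92) and the platelet tubulin gene TUBB1 (1.00) rose from low levels. SELP rose from 0.195 and 0 CPM to 0.852 and 0.411 and was not called without 0 h replicate 2 (adjusted p 0.22) or 6 h replicate 1 (0.0875). In contrast ITGA2B, the alpha chain that pairs with ITGB3, fell from 71.0 and 64.7 CPM to 32.5 and 38.4 (−0.92, SE 0.12, edgeR adjusted p 9.7e-06). GP6, the collagen receptor gene, fell from 153 and 158 to 78.0 and 90.0 (−0.88), and GP1BB, a chain of the von Willebrand receptor, from 77.1 and 87.4 to 52.8 and 49.9 (−0.68). At the start of GP9, another chain of that receptor, the site fell from 10.8 and 11.5 CPM to 4.52 and 6.61.

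The ETS, RUNX and other factor genes listed as megakaryocyte regulators had 28.9% of 232 sites higher and 4.74% lower (median 0.66), and 6 of 12 sums rose and none fell. ERG rose from 14.0 and 13.6 CPM to 50.4 and 66.5 (log2 fold change 2.10, SE 0.14, edgeR adjusted p 9.0e-09), with 14 of 26 sites gained. RUNX3 rose from 52.8 and 60.5 to 97.8 and 146 (1.11), ETS1 from 39.3 and 35.3 to 61.7 and 67.0 (0.79), and ETS2 from 146 and 147 to 204 and 254 (0.65). RUNX1, the partner of CBFB, had 112 and 131 CPM at 0 h and 155 and 190 at 6 h (0.51), a call lost without 6 h replicate 2 (adjusted p 0.0851). CBFB rose by 0.49. A site inside RUNX1 (peak106678, chr21:34835913-34836753) had 25 and 35 counts at 0 h and 197 and 924 at 6 h.

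Erythroid regulators moved the other way. Of 141 sites 12.1% rose and 23.4% fell under all scalings (median −0.37), and of 13 sums 1 rose and 7 fell. KLF1, the erythroid Krüppel-like factor gene, has a site inside it, 964 bases from its stop, that fell from 63.2 and 71.9 CPM to 24.0 and 28.4 (log2 fold change −1.36, SE 0.15, edgeR adjusted p 3.8e-07). The start of LYL1, a relative of TAL1, fell from 77.9 and 87.0 CPM to 34.4 and 29.3 (−1.38, SE 0.15). As sums, NFE2 went from 182 and 180 CPM to 84.4 and 101 (−0.96), GFI1B from 146 and 144 to 78.5 and 82.5 (−0.85), and EPOR, the erythropoietin receptor gene, from 42.4 and 47.3 to 26.1 and 26.8 (−0.76). GATA1 fell from 66.1 and 72.7 to 35.0 and 49.4 (−0.70). TAL1, which encodes a bHLH partner of GATA1, rose from 132 and 143 to 190 and 211 (0.54, SE 0.11, adjusted p 0.00086). At MYB 3 of 17 sites fell and 4 rose, and at IKZF1, the Ikaros gene, 5 of 28 fell and 3 rose. The MYB sum (−0.46) was not called under all scalings.

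Globin genes lost the largest share of sites, although the list is small. Of 25 sites 44.0% fell and 12.0% rose under all scalings (median −0.76), and 6 of 10 sums fell and none rose. The site over HBA1 had 44.4 and 59.5 CPM at 0 h and 22.1 and 14.3 at 6 h (log2 fold change −1.54, SE 0.22, edgeR adjusted p 1.1e-05), and that over HBA2 23.5 and 26.2 against 14.1 and 9.14 (−1.13). HBA1 and HBA2, like the fetal genes HBG1 and HBG2, are near-identical copies, so their separate levels are uncertain. HBG1 fell from 39.9 and 39.6 CPM to 22.1 and 21.1 at its gene-end site, and the delta gene HBD from 14.5 and 18.9 to 5.88 and 8.19 (−1.22). The beta gene HBB, weakly open here, fell as a sum from 11.1 and 10.5 CPM to 4.18 and 3.38 (−1.54). HBE1, the embryonic epsilon gene, had a lower sum (−0.56) that was not called under all scalings. At every globin gene-end site named, both 6 h values lay below both 0 h values, as they did at 32.0% of all tested sites.

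Of 101 sites of haem and iron genes 15.8% fell and 8.91% rose (median −0.42), and 5 of 15 sums fell and none rose. TFRC, the transferrin receptor gene, fell from 217 and 226 CPM to 142 and 148 (log2 fold change −0.61, SE 0.10), and a site near its end (peak122598) from 17.5 and 23.8 to 2.98 and 4.62. FECH and PPOX, genes of haem synthesis enzymes, fell by 0.67 and 0.81 on the log2 scale, and SLC40A1, the iron exporter gene, by 0.63. Of 182 sites of red cell membrane genes 28.0% fell and 14.3% rose (median −0.42), and 6 of 16 sums fell. KEL, the Kell blood group gene, fell at its start from 30.7 and 33.5 CPM to 10.9 and 10.1 (−1.62, SE 0.18, edgeR adjusted p 4.2e-07). The start of RHD, a Rhesus gene, fell from 13.5 and 12.6 to 5.20 and 5.66, while a site near the stop of its close copy RHCE rose from 3.57 and 2.82 to 7.07 and 7.21. Beside GYPB, GYPC (−0.76) and EPB42 (−0.96), the gene of protein 4.2, also fell. The ANK1 sum was not called.

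**Figure D5:**
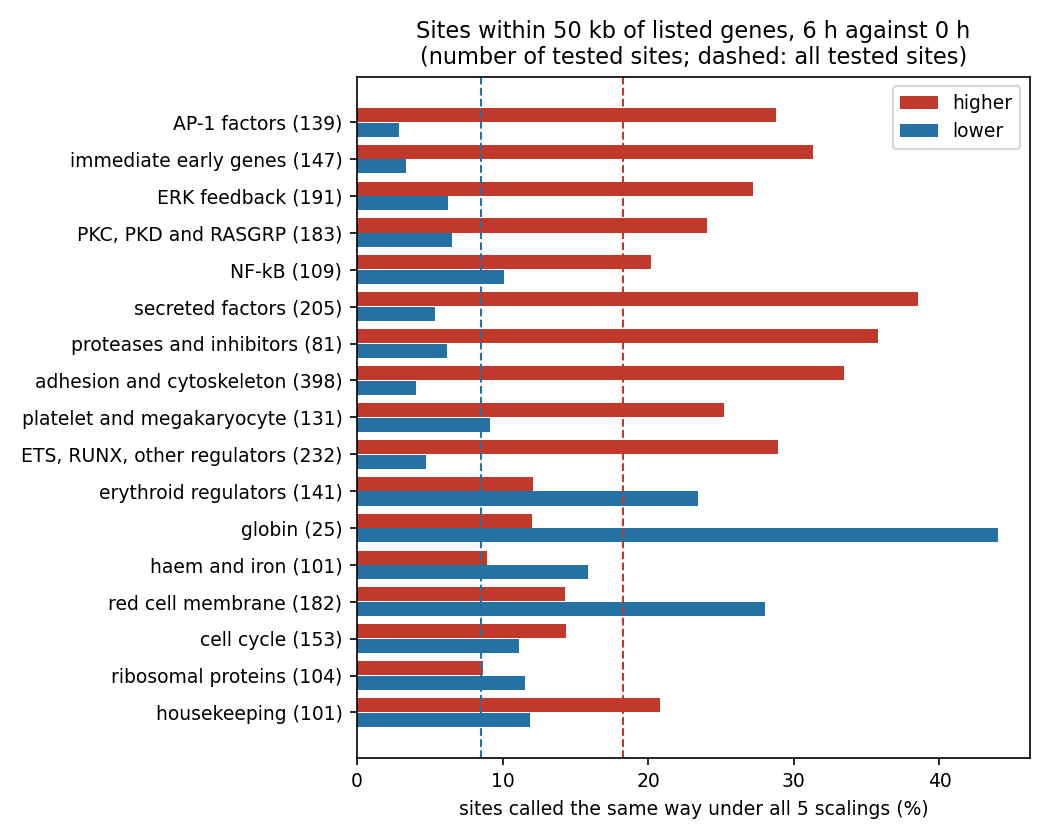
Share of tested sites within 50 kb of listed genes that were called higher (red) or lower (blue) at 6 h under all 5 scalings (x axis, percent), with the number of sites beside each list. Dashed lines mark all tested sites at 18.3% higher and 8.5% lower; secreted factors reach 38.5% higher and globin genes 44.0% lower.

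Of 153 cell cycle sites 14.4% rose and 11.1% fell, of 104 ribosomal protein gene sites 8.65% and 11.5%, and of 101 housekeeping sites 20.8% and 11.9%. CDKN1A, the gene of the cell cycle inhibitor p21, rose from 81.7 and 84.3 CPM to 130 and 142 (log2 fold change 0.71), and CDK4 fell from 91.4 and 70.5 to 40.6 and 45.2 (−0.91). The start of GAPDH fell from 61.9 and 75.7 CPM to 42.4 and 40.9 (−0.72, SE 0.15, edgeR adjusted p 0.00052). The median log2 fold change of the listed sites kept its sign under all 5 scalings for the signalling, secreted, protease, adhesion, platelet, regulator, globin, haem, membrane and erythroid lists, and it changed sign for the cell cycle list (−0.29 under TMM, 0.01 under factors from shared sites), the ribosomal list (−0.19 and 0.11) and the housekeeping list (−0.03 and 0.27).

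The labelled cell type was checked at the gene ends of marker genes. At 0 h the summed gene-end CPM was 488 and 535 over 12 of 13 erythroid regulators and 241 and 265 over 9 of 10 globin genes, and it was 285 to 309 and 119 to 139 at 6 h. Markers of other tissues were lower: lymphoid 34.2 to 47.0 over 7 of 9 genes (PAX5 without a gene-end site), liver 9.10 to 10.7 over 2 of 6 (none for ALB, AFP or TTR), neural 2.58 to 2.66 over SNAP25 alone, muscle 4.94 to 5.40 over ACTA1 and MYOD1. Myeloid markers summed to 64.7 to 70.3 over 5 of 8 genes, with none for MPO, ELANE or CD14, and to 50.4 to 54.7 at 6 h. Within 50 kb 25.0% of 28 neural marker sites rose under all scalings, as did 24.5% of 49 myeloid, 22.2% of 36 liver, 3 of 20 muscle and 12.2% of 49 lymphoid sites, beside 18.3% of all sites. The medians of the same sites were 1.08, −0.02, 0.35, 0.15 and 0.18. CSF1R, the macrophage growth factor receptor gene, rose from 34.0 and 34.9 CPM to 68.9 and 92.1 (log2 fold change 1.23), and MPO, the myeloperoxidase gene, from 7.08 and 4.97 to 21.0 and 21.2 (1.83). At SPI1, the gene of the myeloid factor PU.1, the gene-end site fell from 36.8 and 39.4 CPM to 17.7 and 21.7 (−0.94, SE 0.17).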

How the data were processed

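Per the labels' protocols, nuclei were prepared by Omni-ATAC. The submitters' processing notes name Trim Galore 0.4.3, BWA 0.7.17, SAMtools 1.9, deepTools 3.0.1, MACS2, bedtools 2.26, DESeq and the build hg38, without their order; any shift of read ends is not given in the sources used here. The authors deposited a table with whole-number counts per site and library, their own log2 fold changes and an adjusted p-value, and for each library a peak list with a score, a fold enrichment and −log10 p and q values. Peaks were called per library, as the separate lists show, and were used only to mark sites that overlap one.

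Counts of all 6 libraries were fitted with edgeR 4.0.16 in R 4.3.3 (quasi-likelihood test, TMM, default expression filter with a minimum of 10 counts) and 6 h was contrasted with 0 h. The filter left 177759 sites. A call is a Benjamini-Hochberg adjusted p under 0.05 over all sites, gene sums or windows. CPM are counts per 1000000 of the TMM-scaled library size. Scripts were tested on simulated data. The distance is from a site's midpoint to the nearest gene end in a RefSeq table (GRCh38.p14, 20037 protein-coding genes, 15843 with a strand), and 846 sites on other sequences were left out of it. Members, lists and tests were chosen with earlier results of these data known. Named items follow a rule: the 5 largest rises and falls at a mean of at least 2 CPM with no overlap and the same direction under every scaling, no gene repeated, the 10 genes and 5 windows each way with most robust sites, and up to 3 genes of each list with the most called sites with their strongest gene-end site. List genes beyond these 3, the split of starts and stops, the strength classes, the promoter windows (the most changed at 2 CPM or more) and the most changed site of a gene were chosen after values were seen. Some items that these rules name are not reported here.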

Additional observations from a re-analysis of the deposited data

How the results depend on the processing

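The limits lie in depth and scaling. Calls ran from 51205 sites without 6 h replicate 2 to 75469 under RLE, and no site called under TMM reversed in any alternative except 45 under loess offsets. Leaving out a library left that group with 1 sample, which is assumed to vary like the others. With the stricter threshold (adjusted p under 0.01, log2 fold change beyond 1 in size) 41756 sites were called. With windows of 500 kb, 2729 windows were called.

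The share of calls that were higher (58.2%) was 46.6% under loess offsets, 48.9% under RLE, 67.3% under total counts, 77.3% under factors from shared sites, 55.9% to 60.7% when single replicates were left out, 54.8% with the 0 h and 6 h libraries only, 57.1% with thinned counts, 50.3% with DESeq2 and 69.7% at the stricter threshold. With the replicate number as a block it was 57.0% of 74982 called sites, and 99.3% of the calls held. The block was not used for the main values because same-numbered libraries share only a number: the correlations of their deviations were 0.082, 0.0533 and 0.0854. It is among the alternatives behind the counts of kept calls given below for named sums, sites and windows.

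Of sites called higher, 3.38% lay within 1000 bases of a gene end. This share was 3.57% under total counts, 4.07% under loess offsets, 3.99% under factors from shared sites, 3.20% to 3.76% with replicates left out, 3.14% at the stricter threshold and 6.97% with a reach of 2000 bases. Of sites called lower it was 21.6%, against 13.5% under loess offsets, 18.0% under total counts, 22.7% under RLE, 11.2% under factors from shared sites, 23.4% with thinned counts, 17.1% to 24.4% with replicates left out, 6.19% at the stricter threshold and 25.9% with the longer reach.

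The median of a distance class minus that of all sites was −0.17 within 1000 bases under loess offsets (−0.43 under TMM). At 1000 to 10000 bases it was −0.0086 under RLE, −0.052 under loess offsets and −0.0080 under factors from shared sites. At 10000 to 50000 bases it was 0.053 under loess offsets, at 50000 to 100000 bases 0.20, 0.15 and 0.20 under the same 3 scalings, and at 100000 to 500000 bases 0.20 under loess offsets.

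For the gene lists the same difference under loess offsets was 0.45 for AP-1, 0.41 for immediate early, 0.45 for protease, 0.35 for platelet, 0.50 for megakaryocyte regulator, −0.27 for erythroid regulator, −0.67 for globin, −0.30 for haem, −0.24 for cell cycle, −0.17 for ribosomal and 0.12 for housekeeping genes. For markers it was 0.011 (lymphoid), 0.41 (liver), 0.93 (neural, and 1.02 under factors from shared sites) and −0.063 (muscle). With a reach of 5000 bases it was 0.14 for immediate early, −0.15 for ERK feedback, −0.28 for PKC, −0.13 for NF-kB, 1.29 for secreted factor, 0.70 for adhesion, 0.052 for platelet, 0.024 for megakaryocyte regulator, −0.65 for erythroid regulator, −0.84 for globin, −0.49 for cell cycle, −0.42 for ribosomal and −0.52 for housekeeping genes. For markers at that reach it was 0.0091 (lymphoid), −0.23 (myeloid), 0.76 (liver), −0.034 (neural) and −0.16 (muscle). Among the gene sums, ACTB changed sign without 0 h replicate 2 (main value −0.47, range −0.88 to 0.010 with replicates left out). Of the other values of single sums 543 kept their call and 50 lost it, of gene-end sites 604 and 6, of the largest sites 99 and 1, and all 90 of the windows kept it. The largest sites were chosen to have the same direction under every scaling. The windows and part of the genes were chosen for sites called under every scaling. These counts are therefore partly fixed by the choice and do not measure how often calls hold in general. The causes were not tested.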

Other observations

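In the authors' deposited table each site also carries a class, and the class names do not follow the sign of that table's 6 h log2 fold change. A value above 0 was listed for 65.7% of the 8943 sites classed downEarly and for 65.8% of the 5431 classed upEarly. The classes were therefore not used here.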
